A study of Mus musculus with 4 samples.

Results

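The comparison described here is that of macrophages from *lncLy6c* KO (LNCKO) mice with macrophages from wt (WT) mice, both kept without butyrate. Its members are the 6607 autosomal genes, of 16375 genes listed, whose mean FPKM over 4 libraries was at least 1. FPKM is the number of sequenced fragments per kilobase of gene, scaled by the fragments of the whole library, and the difference of a gene is log2 of (FPKM + 1) in LNCKO over (FPKM + 1) in WT. A value of 1 is therefore 2-fold on this scale, which understates the change of genes with low FPKM. Each group was 1 library, so no difference given below has a replicate check and no test was made.

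The study generated macrophages from bone marrow cells with M-CSF, the growth factor that drives macrophage differentiation, at 30 ng/mL for 4 days. The 4 groups were WT control, LNCKO control, WT macrophages exposed to 500 µM butyrate for 24 h and LNCKO macrophages exposed to the same dose for the same time. The WT mice were C57BL/6, of either sex and 4 to 6 weeks of age according to the methods. The LNCKO mice were C57BL/6J and were made with CRISPR-Cas9 in zygotes, with cuts before exon 1 and after exon 2 of *lncLy6c*, and their age is not given in the sources used here. The number of mice behind a library is likewise not given there. Genotype and treatment were read from the titles of the samples, because the names NC and R3 of the LNCKO libraries do not spell them.

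Macrophages derived from bone marrow arise from proliferating precursors that pass through a monocyte stage. During their differentiation they take up programs for phagocytosis, antigen presentation, lipid handling and cytokine release. Bone marrow also holds erythroid, granulocytic, lymphoid and stromal cells, some of which can be carried into such a culture. Long non-coding RNAs such as *lncLy6c* are transcripts without a known protein product, some of which act on chromatin or on the regulation of other genes.

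The targeted transcript itself was not analysed here, because no gene of its name was listed. The study's qPCR primers for *lncLy6c* are shown because they were used to look for the targeted locus among annotated transcripts. Capitals are not used, since the whole of each primer is its binding sequence.
lncLy6c forward primer: cttaatgtttctctttctggg
lncLy6c reverse primer: tttctttaggtctgttgctga
Among 141767 transcripts of GENCODE M21, both primers matched 1 alone, that of 1700016P04Rik (ENSMUSG00000101894), a lincRNA on the + strand of chr6:13413337-13415996 (GRCm38). The forward primer matched bases 177 to 197 of its 429 bases and the reverse complement of the reverse primer matched bases 351 to 371, which gives a product of 195 bases. Whether this gene is the locus deleted in the LNCKO mice was not tested. Within 500 kb of this gene, 5 genes were listed and 4 of them were members. Their differences between LNCKO control and WT control were small, at -0.09 for Tmem106b, -0.03 for Tmem168, 0.05 for Bmt2 and -0.10 for Smim30.

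The library totals, recovered from the values, were 56392028 fragments in WT control, 53363944 in LNCKO control, 59195293 in WT butyrate and 65521713 in LNCKO butyrate. The libraries also differed in genes of the Y chromosome. The 4 Y-linked genes Ddx3y, Eif2s3y, Kdm5d and Uty had 16 to 85 fragments each in WT control and 2051 to 6128 in LNCKO control, and 23 to 49 against 2419 to 7764 in the libraries with butyrate. Genotype and the sex of the mice cannot be told apart in these libraries. Macrophage markers were present in the libraries. Of 13 macrophage markers 13 were members, with Cd68 at 312 FPKM in WT control and 307 in LNCKO control and Csf1r, the receptor for M-CSF, at 46.5 and 40.8. Genes of other cells passed the same filter: 16 of 16 neutrophil and granulocyte precursor genes and 7 of 13 B cell genes were members. The presence of these markers therefore does not show that the cultures held macrophages alone.

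Most genes had nearly the same value in both control libraries. Over the 6607 members, the median difference was 0.01 and the SD across genes 0.14. The central 98% of the members lay between -0.32 and 0.35, and 4901 members (74.2%) were within 0.1 of 0. Past 2-fold, 10 members (0.151%) were higher in LNCKO control and 5 (0.0757%) were lower. Past 1.5-fold, a limit added after the values were seen, there were 20 higher (0.303%) and 18 lower (0.272%). Above 0 were 56.8% of the members and below 0 were 43.2%, so a list with such a share above 0 lies near the background. The split of the 2-fold genes turned with the scale: with a pseudocount of 0.1 on the same genes 11 were higher and 12 lower, with fragments divided by exon length 48 genes were higher and 69 lower, and with FPKM rescaled to 1000000 per library 52 were higher and 67 lower. Over autosomes, the median difference ran from -0.00 on chromosome 3 to 0.02 on chromosome 10.

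**Figure D1:**
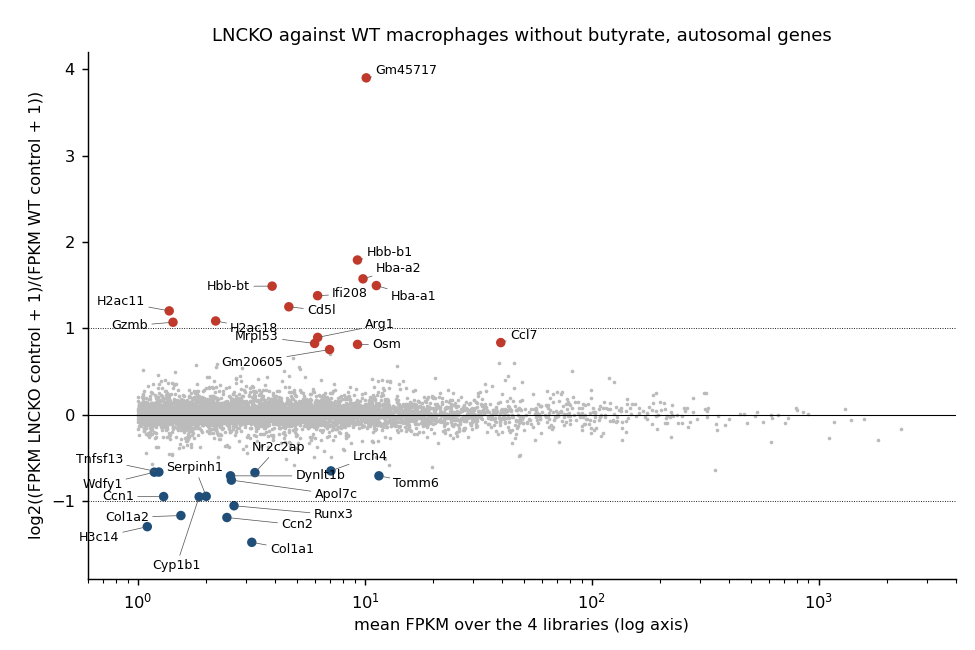
Each point is 1 of the 6607 autosomal genes, with its mean FPKM over the 4 libraries on a log axis and its log2 difference of FPKM + 1 between LNCKO control and WT control. The 15 most positive (red) and 15 most negative (blue) differences are named, dotted lines mark 2-fold, and most genes lie within 0.1 of 0.

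The libraries with butyrate gave the same genotype comparison in a pair that shares no library with the control pair. In that pair the median difference was 0.04, the SD 0.21, and 63.9% of members were above 0, with 13 (0.197%) past 2-fold higher and 17 (0.257%) lower. Across genes, the differences in both pairs had a Pearson's r of 0.36 and a Spearman's rho of 0.13. These describe 6607 genes of 4 libraries, not independent replicates, and each pair also carries its own sample differences. Of the 10 genes past 2-fold higher in LNCKO control, 9 were higher in LNCKO butyrate too and 7 of them past 2-fold. Of the 5 past 2-fold lower, 4 were lower there and 1, Runx3, past 2-fold. A stricter description is that both LNCKO libraries were above both WT libraries, as was the case for 24.7% of members, or below both, as for 11.3%. This description is given for some of the gene lists that follow.

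**Figure D2:**
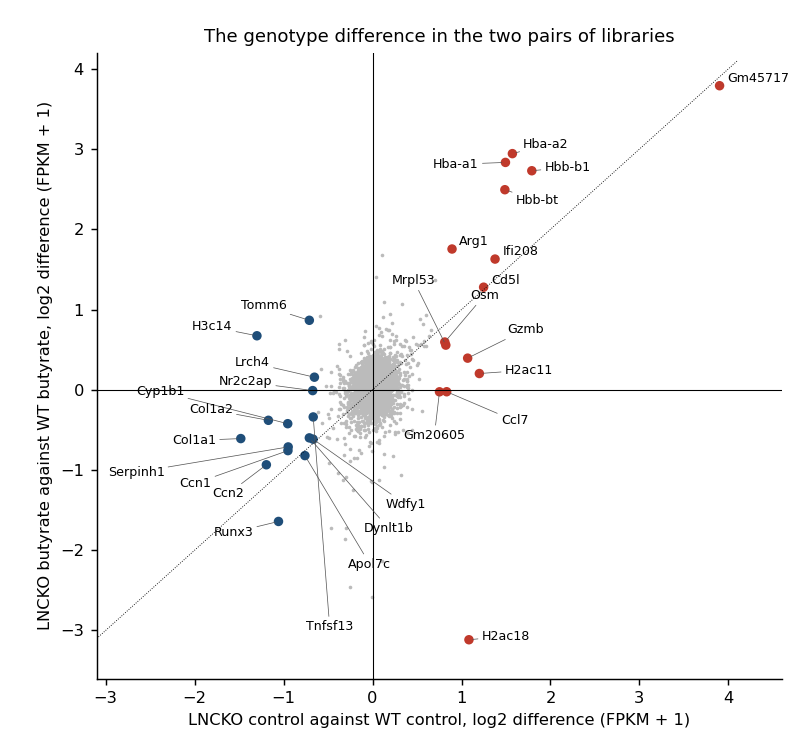
The log2 difference of LNCKO from WT without butyrate (x axis) is plotted against that under butyrate (y axis) for 6607 genes, on the FPKM + 1 scale. The 30 named genes have the largest differences without butyrate (red higher, blue lower), and the dotted line marks equal differences. Gm45717, the globins, Ifi208, Cd5l and Arg1 lie high on both axes, Runx3 lies low on both, and H2ac18 has opposite signs.

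The gene with the largest difference was Gm45717 (ENSMUSG00000110104), a predicted gene on chromosome 7. It had 0.338 FPKM in WT control, 19.0 in LNCKO control, 0.563 in WT butyrate and 20.6 in LNCKO butyrate, so both LNCKO libraries were far above both WT libraries. In fragments, 128 stood against 6802 in the control pair, and the difference was 3.90. Of its 495 exon bases, 268 are shared on the same strand with Ifitm2, an interferon-induced membrane protein gene, and 227 with Ifitm5. Ifitm2 was at 418 FPKM in WT control, 267 in LNCKO control, 435 in WT butyrate and 279 in LNCKO butyrate. Fragments of Gm45717 and Ifitm2 added together were 27277 in WT control and 23203 in LNCKO control, a log2 ratio of -0.15 per library total (95% interval -0.18 to -0.13). The assignment of fragments between these overlapping genes is therefore uncertain, and their sum was not higher in LNCKO control. Intervals here are exact Clopper-Pearson intervals of the fragment ratio and cover counting error only.

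Haemoglobin genes came next, and all 4 that were members were higher in LNCKO. Hbb-b1, a beta-globin gene that GENCODE names Hbb-bs, had 2.00 FPKM in WT control, 9.36 in LNCKO control, 2.63 in WT butyrate and 23.1 in LNCKO butyrate. Its fragment ratio in the control pair was 4.69 (95% interval 3.98 to 5.55), from 176 against 781 fragments, and the difference was 1.79. The beta-globin gene Hbb-bt had 57 fragments in WT control against 293 in LNCKO control, a difference of 1.49. The alpha-globin genes Hba-a1 and Hba-a2 are near-identical copies whose reads can be split between them. Added together they had 263 fragments in WT control, 894 in LNCKO control, 297 in WT butyrate and 3156 in LNCKO butyrate, again with both LNCKO libraries above both WT libraries.

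Other erythroid genes had few fragments and lay on both sides of 0. Of the 13 erythroid genes in the list, 9 were under the filter, and without a filter 7 of 11 were higher and the median was 0.01. With at least 20 fragments in the control pair, 6 of 8 had a higher share in LNCKO control, 4 of them the globins. Car2, a carbonic anhydrase, had 244 fragments in WT control against 267 in LNCKO control, and Ermap, a red cell membrane protein gene, 19 against 26. Epor, the erythropoietin receptor, had 30 against 19, and Hemgn, a nuclear protein gene of erythroid precursors, 36 against 4. Slc4a1, the red cell anion exchanger, had 0 fragments in all 4 libraries. Klf1, the erythroid transcription factor, had 11.99 fragments in WT control against 3 in LNCKO control. The summed FPKM of the list was 8.45 in WT control, 32.4 in LNCKO control, 9.67 in WT butyrate and 88.1 in LNCKO butyrate, most of it globin. In bulk samples, a change in the number of cells of a type and a change in RNA per cell cannot be told apart.

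After Gm45717 and the globins, Ifi208 and Cd5l had the largest positive differences. Ifi208 (ENSMUSG00000066677) belongs to the interferon-inducible p200 family of DNA sensors and their relatives. It had 2.74 FPKM in WT control, 8.72 in LNCKO control, 2.73 in WT butyrate and 10.5 in LNCKO butyrate. Its 3822 and 11500 fragments in the control pair gave a ratio of 3.18 (95% interval 3.07 to 3.30). A list of interferon-inducible GTPase and p200 genes, most of them GTPases, showed no such step. Of its 18 members, 5 were above 0 and 13 below, with a median of -0.06 and values from -0.12 to 0.19. The p200 genes among them, Ifi203, Ifi204, Ifi205, Ifi207, Ifi211 and Mndal, lay between -0.11 and -0.03. The list does not hold every p200 gene, and Ifi208 itself is not in it. Ifi207 was at 34.7 and 32.1 FPKM and Ifi204 at 63.3 and 59.4 in WT control and LNCKO control.

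Cd5l encodes a secreted scavenger protein of tissue macrophages that is a target of the lipid-sensing receptors LXR. It was at 2.37 FPKM in WT control, 7.01 in LNCKO control, 2.24 in WT butyrate and 6.85 in LNCKO butyrate, a fragment ratio of 2.96 (95% interval 2.80 to 3.12) in the control pair and nearly the same step under butyrate. In the list of scavenger and C-type lectin receptors, to which it was assigned, 8 of 15 members were above 0 and the median was 0.04. Cd36, a receptor for oxidised lipid, was next at 1.25 and 1.89 FPKM, then Clec5a at 8.22 and 6.54, and Msr1, scavenger receptor A, at 3.21 and 4.15. Lipid handling genes as a list were centred at 0.00, with 10 of 17 members above 0. Individual lipid genes stood further out in both directions. Lpl, lipoprotein lipase, was at 13.1 FPKM in WT control, 19.9 in LNCKO control, 7.71 in WT butyrate and 14.4 in LNCKO butyrate. Hilpda, an inhibitor of lipolysis on lipid droplets, had a difference of 0.55, and Nr1h3, which encodes LXR alpha, of 0.31. Pltp, the phospholipid transfer protein, went the other way at 13.5, 9.13, 15.9 and 10.2 FPKM in the same order, with both LNCKO libraries below both WT libraries. Apoe was at 2146 FPKM in WT control and 1907 in LNCKO control.

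Arg1, arginase, a gene of alternatively activated and of hypoxic macrophages, had 3.33 FPKM in WT control, 7.05 in LNCKO control, 2.74 in WT butyrate and 11.6 in LNCKO butyrate. The fragment ratio in the control pair was 2.11 (95% interval 2.01 to 2.22). It had the largest difference of its list: of 9 members of the alternative activation list 4 were above 0 and the median was -0.01. Klf4, a transcription factor of that program, was lower at 5.20 against 4.14 FPKM, and Chil3, a chitinase-like protein, at 46.7 against 40.5.

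Glycolysis and hypoxia genes lay on the same side of 0 throughout. Low oxygen stabilises hypoxia-inducible factors, which bind short DNA elements and raise glycolytic enzymes, glucose and lactate transporters and their own prolyl hydroxylases. All 22 genes of this list were members, and all 22 were above 0 in LNCKO control, against 56.8% of all members. The median difference was 0.27, against 0.01 for all members, with values from 0.02 to 0.63. In the butyrate pair 22 of 22 were again above 0, with a median of 0.21, and for 21 of the 22 both LNCKO libraries were above both WT libraries. The list was chosen with results of these data known, so its direction is a description and has no chance value.

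Bnip3, a mitophagy receptor induced by hypoxia, had the largest difference of the list. It was at 3.06 FPKM in WT control, 5.29 in LNCKO control, 2.97 in WT butyrate and 5.34 in LNCKO butyrate, a fragment ratio of 1.73 (95% interval 1.66 to 1.81). Egln3, a prolyl hydroxylase that marks hypoxia-inducible factors for degradation, was at 1.26, 2.38, 1.20 and 2.36 FPKM in the same order. Ankrd37, an ankyrin-repeat target of the pathway, was at 1.03, 1.85, 0.988 and 1.96 FPKM. In these 3 genes the LNCKO libraries lay close to each other and clear of the WT libraries. Ero1a, an oxidase of the endoplasmic reticulum, had a difference of 0.40 and Vegfa, an angiogenic growth factor, of 0.39.

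The enzymes and transporters of glycolysis had smaller differences from far more fragments. Tpi1, triosephosphate isomerase, was at 108 FPKM in WT control and 141 in LNCKO control, a difference of 0.38. Slc16a3, the lactate exporter, was at 11.7 and 15.2 FPKM, Slc2a1, the glucose transporter GLUT1, at 2.11 and 2.90, and Ldha, lactate dehydrogenase, at 39.2 and 48.7. Aldoa, aldolase, was at 177 and 212 FPKM, and Pkm, pyruvate kinase, at 58.8 and 71.3. The hexokinases were nearest to 0, with 0.11 for Hk2 and 0.02 for Hk1, and the interval of the Hk1 fragment ratio on the log2 scale, -0.01 to 0.08, included 0.

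**Figure D3:**
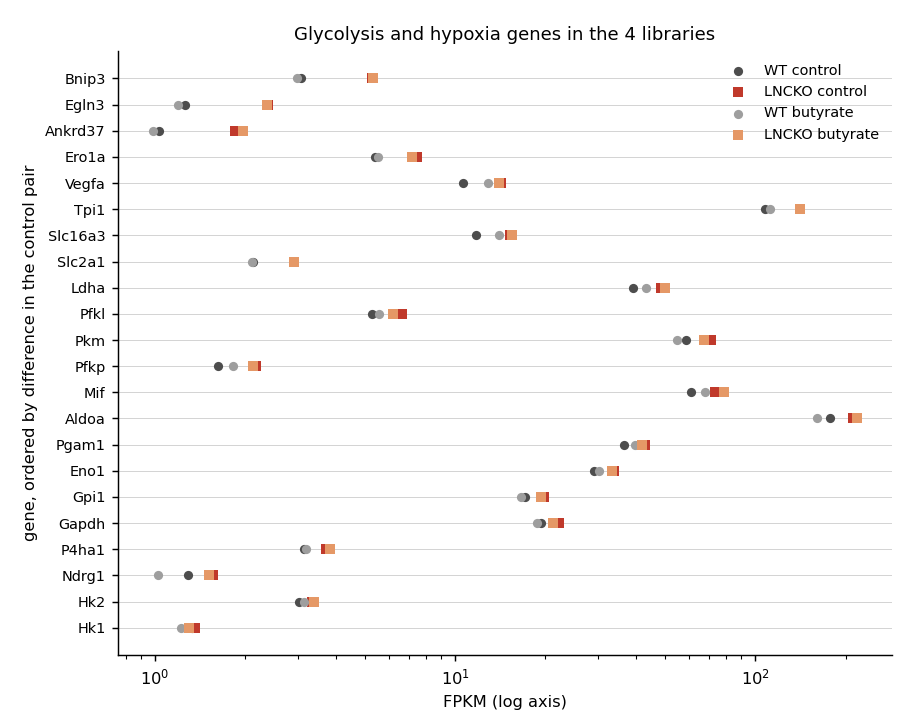
FPKM on a log axis for the glycolysis and hypoxia genes, with 1 point per library (circles WT, squares LNCKO, darker without butyrate). The genes are ordered from bottom to top by their difference between LNCKO control and WT control, from 0.02 for Hk1 to 0.63 for Bnip3. The squares lie to the right of the circles except in Hk1, where LNCKO butyrate lies between the WT libraries.

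The promoters of this list were searched for the core of the hypoxia response element, the letters ACGTG on either strand (CACGT on the other). The search covered the 250 bases before the start in RefSeq's promoter sequences, 1 per gene, on GRCm38.p6. The letters were in 10 of 21 promoters of the list (47.6%), in 1265 of 5300 promoters of members (23.9%) and in 4477 of 27025 promoters in all (16.6%). A match of 5 letters is a description of the sequence and not a binding site. The list was made of glycolysis genes and known hypoxia genes, so its share follows in part from that choice. Hk2, with a difference of only 0.11, holds matches too. A hypoxia response in these cultures was not tested. Windows of 29 bases are shown for the 6 genes with a match and the largest differences, with the 5 letters in capitals, on the strand of the gene.
Bnip3 (chr7:138909597-138909625, - strand): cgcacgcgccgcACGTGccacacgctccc
Egln3 (chr12:54204087-54204115, - strand): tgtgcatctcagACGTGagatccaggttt
Ankrd37 (chr8:46000072-46000100, - strand): cccagcagtACGTGcctagctcggctcgc
Ero1a (chr14:45318619-45318647, - strand): cgcgcgccgctgCACGTccgcaggggagg
Slc16a3 (chr11:120949028-120949056, + strand): caggcagcggtgACGTGcgcgggggacgt
Slc2a1 (chr4:119108697-119108725, + strand): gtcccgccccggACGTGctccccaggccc
The match lies 107 bases before the start in Bnip3, 229 in Egln3, 241 in Ankrd37, 63 in Ero1a, 27 in Slc16a3 and 36 in Slc2a1. Bnip3, Ankrd37 and Slc16a3 hold a further match, which in Bnip3 is the same CACGTG read on the other strand.

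Immediate early genes, which are transcribed within minutes of a growth factor or inflammatory signal, were also mostly higher. Of 24 members of the list of immediate early and NF-kB genes, 18 were above 0, with a median of 0.15, and in 14 both LNCKO libraries were above both WT libraries, against 24.7% of all members. The NF-kB subunit genes of the list, Nfkb1, Nfkb2, Rel and Relb, were among those below 0, at -0.07, -0.11, -0.09 and -0.03. Under butyrate they were above 0. Egr1 was at 33.3 FPKM in WT control, 51.1 in LNCKO control, 28.7 in WT butyrate and 42.5 in LNCKO butyrate. The related zinc finger genes Egr3 and Egr2 had differences of 0.41 and 0.35. Dusp5, a phosphatase of MAP kinases, was at 2.88 FPKM in WT control and 3.81 in LNCKO control. Myc, a growth regulator, went opposite ways, with 8.28 and 11.2 FPKM without butyrate and 15.6 and 10.4 under butyrate. Plk3, a stress-induced kinase named by its ratio on exon length, had 464 fragments in WT control against 797 in LNCKO control.

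Runx3 (ENSMUSG00000070691) encodes a Runt-domain transcription factor of leukocytes and was among the lowest genes of the comparison. It was at 2.85 FPKM in WT control, 0.849 in LNCKO control, 5.73 in WT butyrate and 1.16 in LNCKO butyrate, so both LNCKO libraries were below both WT libraries. The difference was -1.06 without butyrate and -1.64 under butyrate. Its values have a particular limit. Of the 84 members whose FPKM did not give whole fragments on the gene span, 83 did so on another length and Runx3 on none from 60 to 3000000 bases, with 9206.62 fragments in WT control against 2598 in LNCKO control. How its values were made is not given in the sources used here.

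The other genes of the list of Runx, Nr4a and Zfp36 genes lay near or above 0. Nr4a1, an orphan nuclear receptor of resident macrophages, was higher, at 0.840 FPKM in WT control, 1.62 in LNCKO control, 0.511 in WT butyrate and 1.23 in LNCKO butyrate, with a fragment ratio of 1.93 (95% interval 1.79 to 2.09). Its mean of 1.05 FPKM passed the filter only through the LNCKO libraries. Zfp36, which destabilises cytokine mRNAs, was at 156, 170, 130 and 164 FPKM in the same order, with both LNCKO libraries above both WT libraries. Zfp36l1 and Zfp36l2 had differences of 0.02 and -0.07, Cebpb of 0.18 and Cbfb, the partner of Runx proteins, of 0.02. In the list of this axis 7 of 11 genes were members, 5 of them above 0, with a median of 0.02.

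Of the 8 members among the MAPK genes the study names, 5 were above 0 and the median was 0.05. The kinase Mapk3 was at -0.08, and its activators Map2k1 and Map2k2 were at 0.05 and 0.12. Atf4, Jund, Hspa1a and Daxx lay between -0.10 and 0.15. The 4 members among the proteins for H3K4 methylation were closer still to 0, with 0.06 for Wdr5, 0.03 for Rbbp5, 0.02 for Kmt2a and -0.03 for Ash2l. None of these differences was larger than the SD of 0.14 across members except that of Atf4, at 0.15.

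Chemokine genes had a median of 0.20, with 12 of 16 members above 0, but not under butyrate, where 8 of 16 were above 0 and the median was -0.00. Without the filter on low values, 13 of 22 chemokine genes were above 0 and the median was 0.07. Ccl7, which attracts monocytes through CCR2, was at 23.5 FPKM in WT control against 42.7 in LNCKO control, 46.6 in WT butyrate and 45.8 in LNCKO butyrate, so WT control alone was low. Ccl2, a ligand of the same receptor, was at 63.0, 90.1, 76.2 and 96.2 FPKM in that order. Ccl12 was at 26.2 and 36.02 FPKM without butyrate, and the order turned under butyrate. Ccl4, an inflammatory chemokine, was at 16.4 and 22.3 FPKM and Cxcl10, an interferon-induced chemokine, at 50.9 and 36.2. Pf4, a chemokine of platelets and macrophages, was at 86.9 and 117 FPKM.

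Cytokine genes were centred at 0.02, with 9 of 16 members above 0. Osm, oncostatin M of the interleukin-6 family, was at 6.96 FPKM in WT control, 12.97 in LNCKO control, 6.63 in WT butyrate and 10.5 in LNCKO butyrate. Both LNCKO libraries were above both WT libraries, and the fragment ratio in the control pair was 1.86 (95% interval 1.76 to 1.98). Il1b had a difference of 0.30 and Il10 of 0.31. Tnfsf13, which encodes the B cell factor APRIL, was lower at -0.67, but it shares 983 exon bases on its strand with the fusion gene Tnfsfm13.

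Collagens and other matrix genes were among the lowest differences. Col1a1, the main chain of type I collagen, was at 5.14 FPKM in WT control, 1.20 in LNCKO control, 4.04 in WT butyrate and 2.31 in LNCKO butyrate. Its 4872 and 1076 fragments in the control pair made it 4.28-fold lower in LNCKO control. Col1a2, the second chain, was at 2.49, 0.548, 1.91 and 1.23 FPKM in the same order. Both collagens were lower in both LNCKO libraries, with a smaller step under butyrate. Serpinh1, the collagen chaperone, had 1144 fragments in WT control against 359 in LNCKO control. The matricellular genes Ccn2 and Ccn1 had 518 against 117 and 293 against 66 fragments. Cyp1b1, a cytochrome P450 of mesenchymal cells, had 1733 against 498, and Aebp1, a regulator of fibroblasts, 726 against 403.

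The whole list of stromal markers lay the same way. Of its 18 genes, 3 passed the filter, so the rest were taken as fragments. With at least 20 fragments in the control pair, 17 of 18 had a lower share in LNCKO control and the median log2 fragment ratio was -1.31, against 0.02 for the 12940 autosomal genes at that depth, of which 54.7% were higher. Cxcl12, a chemokine of marrow stroma, had 766 fragments in WT control, 127 in LNCKO control, 1223 in WT butyrate and 360 in LNCKO butyrate. Sparc, a collagen-binding matrix protein, had 2042, 539, 1924 and 1432. Thy1, which T cells also carry, was the 1 higher gene, with 89 and 175 fragments in the control pair. The summed FPKM of the list was 19.0 in WT control, 8.91 in LNCKO control, 19.4 in WT butyrate and 12.96 in LNCKO butyrate. The genes outside the list that are named with it, Serpinh1, Ccn1, Ccn2, Cyp1b1 and Aebp1, were lower in LNCKO control like most of these markers. Under butyrate Aebp1 had 823 fragments in WT and 947 in LNCKO, a log2 ratio of 0.06, while the others were lower in LNCKO. The part of stromal cells in the differences of these genes was not tested.

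**Figure D4:**
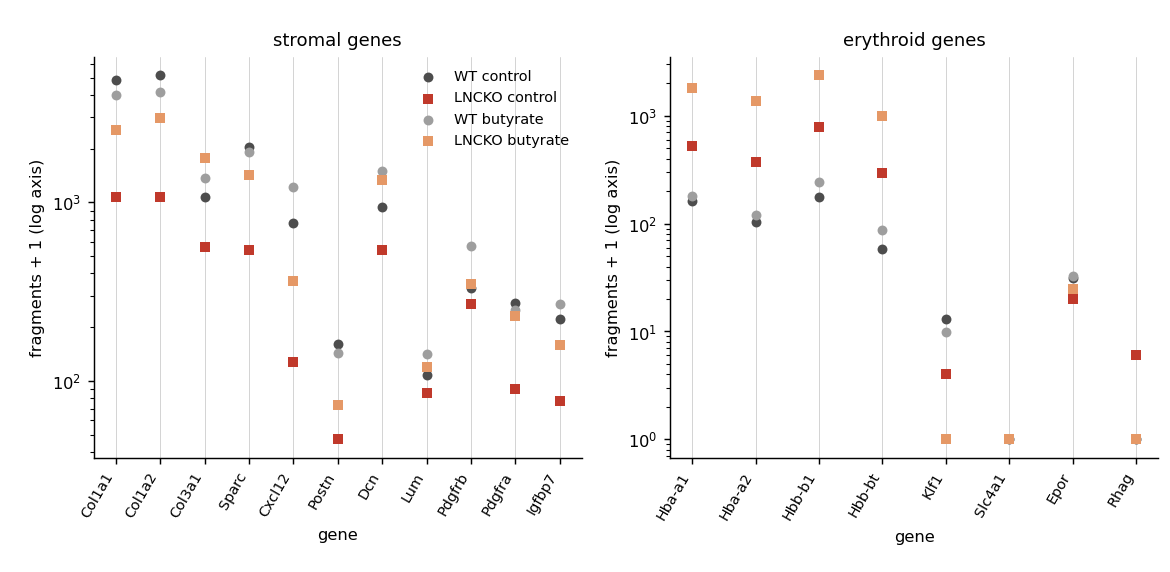
Fragments plus 1, on a log axis, for 11 stromal genes (left) and 8 erythroid genes (right), with 1 point per library (circles WT, squares LNCKO, darker without butyrate). LNCKO control is the lowest library in all 11 stromal genes, while the 4 globins are high in both LNCKO libraries and Slc4a1 is at 0 fragments in every library.

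Markers of the other cells of marrow were compared in the same way. Mast cell and basophil genes were higher: 4 of 10 genes were members, all 4 above 0, with a median of 0.53 and 0.80 under butyrate. Mcpt8, a basophil protease, was at 5.85 FPKM in WT control, 10.1 in LNCKO control, 2.96 in WT butyrate and 9.23 in LNCKO butyrate. Prss34, another basophil protease, was at 38.0, 58.0, 29.3 and 56.9 FPKM, so both LNCKO libraries exceeded both WT libraries in both genes. Gata2, a transcription factor of these cells and of precursors, had 658 fragments in WT control against 1118 in LNCKO control. The mast cell genes Kit and Cpa3 had 1888 against 1884 and 990 against 1332 fragments, and Tpsb2 had 0 in both control libraries. The summed FPKM of the list was 46.8, 72.5, 35.5 and 71.6 in the order given.

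Gzmb, the protease granzyme B of cytotoxic lymphocytes and of some mast cells and basophils, was past 2-fold. It had 174 fragments in WT control, 546 in LNCKO control, 131 in WT butyrate and 261 in LNCKO butyrate, and the fragment ratio in the control pair was 3.32 (95% interval 2.79 to 3.96). Of 18 T and NK cell genes 12 were under the filter. At 20 fragments or more, 16 of the 18 had a higher share in LNCKO control, with a median log2 ratio of 0.69. Of all autosomal genes at that depth 54.7% were higher, with a median of 0.02. Among the 6 members of the list, 5 were above 0 in the control pair and 3 under butyrate. Prf1, perforin, had 17 fragments in WT control against 96 in LNCKO control, Gzma 11 and 42, Cd3e of the T cell receptor complex 43 and 101, and Il2rb 337 and 607. The levels in the control pair were low, with a summed FPKM of 99.2 in WT control and 109 in LNCKO control, most of it Ccl5, which macrophages express as well. Under butyrate the sum stood in the opposite order, at 225 in WT butyrate and 113 in LNCKO butyrate. Ccl5 had a difference of -1.12 there. The part of cytotoxic cells in the Gzmb difference was not tested.

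Neutrophil genes were shifted downwards, with 10 of 16 members below 0 and a median of -0.14, against -0.41 under butyrate. S100a9 and S100a8, the subunits of calprotectin, were at 615 and 493 FPKM and at 1186 and 984 FPKM in WT control and LNCKO control. Among the granule genes, values lay on both sides of 0, with Mpo, myeloperoxidase, at 92.3 and 106 FPKM and Elane, neutrophil elastase, at 174 and 190. Ltf, lactoferrin, was at 22.1 and 18.4 FPKM and Lcn2 at 110 and 92.3. Under butyrate Mpo and Elane lay below 0, at -0.43 and -0.58, while Camp, a granule peptide gene, went from -0.18 to 0.31. The summed FPKM of the list was 2987 in WT control and 2613 in LNCKO control.

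B cell genes lay close to 0 in the control pair. The 7 members had a median of 0.02 and lay between -0.02 and 0.11, with Cd79a at 68.3 and 69.3 FPKM. Under butyrate all 7 were above 0, with a median of 0.42. Rag1, of the recombinase of B and T cell precursors, had the largest difference there, with 2.15 FPKM in WT butyrate against 9.27 in WT control, 10.1 in LNCKO control and 9.11 in LNCKO butyrate. Dendritic cell genes had a median of -0.06 over 4 members and eosinophil genes of 0.06 over 6. The 3 osteoclast members lay between -0.06 and -0.01, the 2 endothelial members at 0.04 and 0.11, and the megakaryocyte genes Pf4 and Ppbp at 0.42 and 0.21.

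Macrophage and monocyte markers changed little. Of 13 macrophage markers 5 were above 0, and the median was -0.02 without butyrate and -0.21 under butyrate. Lyz2, lysozyme, had the largest difference of the list, at 1972 FPKM in WT control, 1609 in LNCKO control and 870 in LNCKO butyrate, with WT butyrate highest. Its fragment ratio in the control pair was lower by 0.29 on the log2 scale, and its spread between the LNCKO libraries was larger than that. Adgre1, which encodes F4/80, was at 6.40 and 6.63 FPKM and Mertk, a receptor for dying cells, at 1.23 and 1.24. Of 10 monocyte genes 8 were below 0, with a median of -0.07. Ccr2 was at 146 and 131 FPKM and Fn1, fibronectin, at 3.22 and 2.63. Of the 9 members among the resident and inflammatory markers the study names, 4 were above 0 and the range was -0.16 to 0.13. Ly6c1 and Ly6c2, near-identical copies that encode the Ly6C antigen, were at 49.3 and 47.7 and at 728 and 752 FPKM. In the Ly6 family as a whole 3 of 9 members were above 0, and Ly6g, a granulocyte marker, was lowest at 4.04 and 2.99 FPKM.

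Interferon-response genes were slightly and rather evenly lower. Of 26 members 23 were below 0, against 43.2% of all members, and the median was -0.06 without butyrate and -0.08 under butyrate. The range was -0.29 to 0.03. Ifit3b and Ifit1, whose proteins bind viral RNA, were at 53.2 and 43.3 FPKM and at 45.6 and 37.6 FPKM. Isg15, a ubiquitin-like modifier, was at 259 and 235 FPKM, and Irf7, the factor that amplifies interferon production, at 387 and 356. Both LNCKO libraries were below both WT libraries in 2 of the 26, against 11.3% of all members. MHC class I genes had a median of 0.04 with 13 of 16 above 0. Among them H2-Q6 and H2-Q7, which are near-identical copies, had 0.40 and 0.38. MHC class II genes were centred at 0.00, with Cd74 at 93.5 and 94.4 FPKM.

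Genes of sensing and clearance also leaned below 0 without butyrate. Of 13 Toll-like and Fc gamma receptor genes 12 were below 0, against 43.2% of all members, with a median of -0.05. Tlr2 had the largest difference at 24.9 and 21.9 FPKM, and Cd14, the co-receptor for lipopolysaccharide, was the 1 above 0. Under butyrate 7 of the 13 were above 0 and the median was 0.01. Both LNCKO libraries were below both WT libraries in 2 of the 13, against 11.3% of all members. Of 11 complement genes 9 were below 0 without butyrate, with a median of -0.04, and 9 under butyrate, with a median of -0.27. C1qc was at 204 and 190 FPKM, and Cfb, factor B, was above 0 at 111 and 122. C4b had 995 fragments in WT control against 745 in LNCKO control. Matrix metalloproteinases had a median of -0.07 over 7 members, with Mmp9 at 15.4 and 13.5 FPKM and Mmp13 at 3.59 and 4.17.

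Genes of the cell cycle leaned above 0. In DNA replication 20 of 21 members were higher, with a median of 0.11. Fen1, the flap endonuclease, was at 10.6 FPKM in WT control and 14.2 in LNCKO control, a difference of 0.39, and Mcm2 of the replicative helicase at 5.70 and 6.49. In the butyrate pair 13 of the 21 were above 0 and the median was 0.04. In mitosis 19 of 23 members were above 0, with a median of 0.06, and the values of Ube2c, Cenpa and Ccnb1 were 0.17 each. Both LNCKO libraries were above both WT libraries in 9 of 21 replication and 6 of 23 mitosis genes, against 24.7% of all members. NRF2 targets, which protect cells from oxidants, were above 0 in 9 of 9 members, with a median of 0.10. Hmox1, haem oxygenase, was at 33.9 FPKM in WT control, 42.8 in LNCKO control, 21.5 in WT butyrate and 46.2 in LNCKO butyrate, and Blvrb, which acts after it in haem breakdown, at 3.35 and 4.097 in the control pair.

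Genes of sterol and fatty acid synthesis had a median of 0.07 with 16 of 20 members above 0, led by the desaturase Scd2 at 32.3 and 39.3 FPKM. Those of the integrated stress response had a median of 0.08 with 11 of 13 above 0, led by Atf4 at 78.9 and 87.4. Of 20 myeloid transcription factors 13 were above 0, against 56.8% of all members, with a median of 0.06. Both LNCKO libraries were above both WT libraries in 1 of the 20 sterol and fatty acid genes, against 24.7% of all members. The counts were 5 of 13 for the stress response and 6 of 20 for the transcription factors. Besides Gata2, Id1, an inhibitor of differentiation factors, had 450 fragments in WT control against 314 in LNCKO control, Gfi1, a repressor in granulocyte precursors, 905 and 1192, and Cebpd 2613 and 1947.

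**Figure D5:**
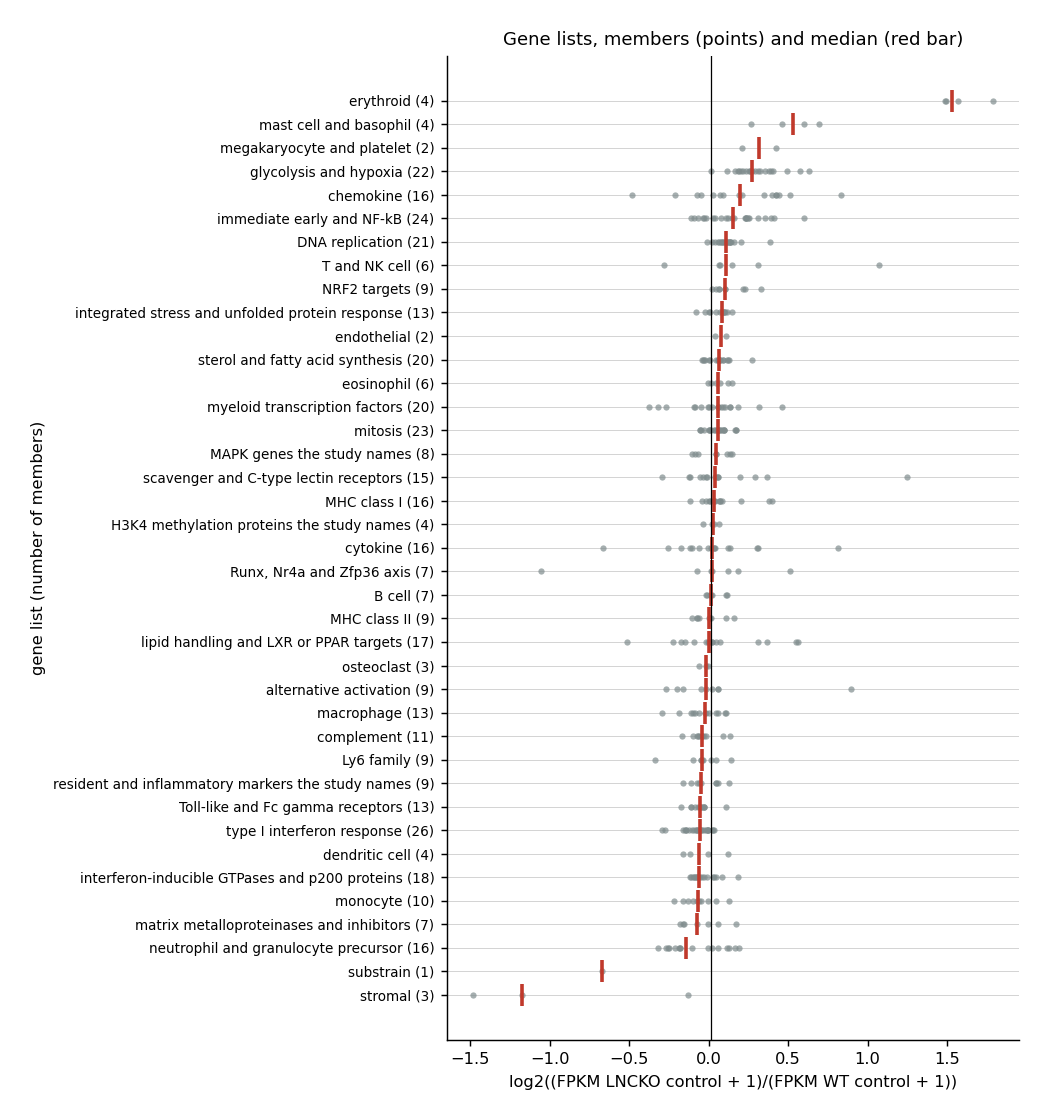
Each grey point is a member gene of a list, at its log2 difference of FPKM + 1 between LNCKO control and WT control. The red bar is the median of the list, the number in brackets counts its members, and the vertical line is the median of all 6607 members, 0.01. The highest median, 1.53, is that of the 4 globins, which alone of the erythroid list passed the filter, and the lowest, -1.17, is that of the 3 stromal genes that passed. Without a filter these medians were 0.01 and -0.16. Most lists lie within 0.2 of 0.

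The other genes with large differences were mostly short histone genes or genes that overlap a neighbour. Of the 15 members past 2-fold, 3 shared exon bases with another gene on their strand, as did 620 of 6607 members (9.38%), and past 1.5-fold 11 of 38 did so. H2ac11, a histone H2A gene, had 8 fragments in WT control against 51 in LNCKO control, a ratio with a 95% interval from 3.17 to 16.4. H2ac18, another, had 0 and 35, and it passed the filter mainly through WT butyrate, at 7.67 FPKM. H3c14, a histone H3 gene, had 179 and 11. H2ac18 and H3c14 both share exon bases with Gm20634.

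In several overlapping pairs the partners went opposite ways. Lrch4 was at 10.5 FPKM in WT control and 6.33 in LNCKO control, and Gm20605, which shares 3029 exon bases with it, at 3.98 and 7.39. Their sum differed by -0.03 on the log2 scale (95% interval -0.07 to 0.01). Srcap, a chromatin remodeller, had 4080 and 1737 fragments, and with Gm42715, which shares 9738 exon bases, the sum gave 0.05. Mrpl53 overlaps Gm42688, Tomm6 overlaps Gm21981, Rbm42 overlaps Gm21982 and Nr2c2ap overlaps Rfxank on the other strand, and their differences of 0.82, -0.71, -0.59 and -0.67 carry the same uncertainty.

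A few genes that were lower in LNCKO shared no exon bases with a gene on their strand. Apol7c, an apolipoprotein L gene of dendritic cells and macrophages, was at 3.22 FPKM in WT control, 1.49 in LNCKO control, 3.85 in WT butyrate and 1.74 in LNCKO butyrate. Dynlt1b, a dynein light chain gene that belongs to a cluster of near-identical copies, was at 3.45, 1.72, 3.24 and 1.80 FPKM. Wdfy1, an adaptor of Toll-like receptors, was at 1.67, 0.679, 1.64 and 0.725 FPKM, and 126 of its exon bases overlap Mrpl44 on the other strand. The unnamed gene 9030025P20Rik had 996 fragments in WT control against 510 in LNCKO control, and the kallikrein gene Klk1b11 208 and 117. In each of these, both LNCKO libraries lay below both WT libraries. The filter takes the mean of all 4 libraries, so a gene with low values can pass it through the side where it is high. Wdfy1 and 9030025P20Rik were above 1 FPKM in the WT libraries alone. Klk1b11 was above 1 FPKM in WT butyrate alone, at 4.57. The order of the libraries in these 3 genes is thus partly selected. The same holds for other genes named above. Gm45717, Hbb-bt, Gzmb and Nr4a1 were above 1 FPKM in the LNCKO libraries alone, and Ccn1 and Srcap in the WT libraries alone.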

How the data were processed

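The 4 libraries were RNA-seq of bone marrow-derived macrophages. The authors deposited FPKM values of 16375 genes, without counts. The methods name TRIzol, an MGISEQ-2000 with 100-bp paired-end reads and the provider's web platform, but RNeasy, TruSeq and Illumina stand in the labels. The submitters' processing notes list STAR 2.5.0c, Picard 1.126, bedtools 2.17.0, HTSeq 0.6.0 and DESeq2 3.0, with GRCm38, without their roles. Strandedness is not given in the sources used here.

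Library totals were recovered as the numbers that made FPKM times gene span whole (within 0.05) in GENCODE M21. This gave whole fragments for 98.8% of 16342 matched genes in each library, so FPKM was on the genomic span with introns and was compared between libraries, not between genes. Differences were log2 of FPKM + 1. Fragment ratios have exact 95% Clopper-Pearson intervals, which cover counting error only, as fragments carry no molecular identifiers. At these depths, 3 fragments is the limit that a count of 0 allows. With 1 library per group no p-value was computed. Named were the 15 largest differences each way, the 5 next largest each way on exon length, genes the study names and up to 6 genes of each of 39 lists; other list genes in the text were chosen after their values were seen. Members and lists were chosen with earlier results of these data known. Alternatives were another pseudocount, other filters, other scalings, exon length, other gene sets and another fold. The steps were tested on simulated data. Scripts ran in Python 3.11.15 with pandas 2.3.3, matplotlib 3.10.9, scipy 1.17.1 and numpy 2.4.6. Some genes of the lists are not reported here by name.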

Additional observations from a re-analysis of the deposited data

Results flagged for a closer look

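In 3 of the named genes the LNCKO and WT libraries stood in opposite order without and with butyrate, and with 1 library per group these differences between the pairs were not tested. H2ac18 was at 1.08 without butyrate and -3.12 under butyrate, from 0, 35, 266 and 0 fragments in WT control, LNCKO control, WT butyrate and LNCKO butyrate. H3c14 was at -1.30 and 0.67, from 179, 11, 81 and 214 fragments in that order. Both are histone genes that share exon bases with Gm20634. Tomm6 was at -0.71 and 0.87, and shares exon bases with Gm21981.

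Ddx3y, a Y-linked gene outside the autosomal members, had 6128 fragments in LNCKO control against 65 in WT control.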

How the results depend on the processing

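No paired analysis was possible because the comparison without butyrate has 1 library a side and no test, and for the same reason no library could be left out. A model of genotype and treatment over all 4 libraries, which asks another question, was not fitted. The counts of 10 higher and 5 lower genes past 2-fold depended on the filter, the scale and the genes left out. They were 5 and 0 at a mean FPKM of at least 5, 52 and 67 with FPKM rescaled to 1000000 per library, 48 and 69 with fragments on exon length, and 5 and 3 without markers of other cell types. With a pseudocount of 0.1 on the same genes, 11 were higher and 12 lower, and with no filter 12 and 7. The fold was changed after seeing the data: past 1.5-fold there were 20 and 18. The SD over genes, 0.14 on FPKM + 1, was 0.26 when rescaled and 0.26 on exon length. The 13 genes that kept their direction in the butyrate pair became 21 with a pseudocount of 0.1, 5 at the stricter filter, 76 when rescaled and 79 on exon length, and the cause of these moves was not tested. Other settings of these results, and leaving out genes that share exons (also added after seeing the data, 8 higher and 4 lower), stayed within 1.5 times or within the limit for a move. No named gene changed sign in 212 recomputed values, although 93 moved by more than 0.2. This was largely fixed in advance, because another pseudocount or filter cannot turn the sign of a gene. The genes were also named for their large differences, so the lack of sign changes is no check of them. Of 230 recomputed list medians 17 moved and 12 changed sign, all 12 from within 0.1 of 0. The glycolysis and hypoxia median ran from 0.26 to 0.31, the erythroid median from 0.01 without a filter to 2.04, and the stromal median from -1.996 to -0.16.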

Other observations

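Genes under the filter on mean FPKM can still carry many fragments. Of 4234 autosomal genes under it with at least 200 fragments in the control pair, 7 were higher and 11 lower by at least 4-fold in LNCKO control. Thbs2, a matricellular thrombospondin, had 279 fragments in WT control, 35 in LNCKO control, 651 in WT butyrate and 75 in LNCKO butyrate. Timm10b had 546, 73, 427 and 69 in that order, and Fat1, an atypical cadherin, 456, 77, 466 and 214. In others the step was far smaller or turned under butyrate: Dpep2 had 1287, 50, 63 and 35 fragments, Gemin4 0, 564, 10 and 6, and Gm49368 604, 7001, 675 and 844. These were chosen after their values were seen, and the cause was not tested.

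The methods name C57BL/6 for the WT mice and C57BL/6J for the LNCKO mice, and Nnt and Wdfy1 are among the genes known to differ between C57BL/6 substrains. Nnt (ENSMUSG00000025453), a mitochondrial transhydrogenase, had 2144 fragments in WT control, 1200 in LNCKO control, 2509 in WT butyrate and 1242 in LNCKO butyrate. A second Nnt entry at the same place (ENSMUSG00000116207) had 840, 659, 78 and 915. Wdfy1 had 6948, 2676, 7188 and 3510.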
